A study of Mus musculus with 2 samples.

Results

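The MHC class I presentation genes described here are H2-K1, H2-D1, B2m, Tap1, Tap2, Tapbp, Psmb8, Psmb9, Psmb10 and Nlrc5. They were chosen by symbol as the genes of the classical class I pathway, not by any measured value, and are 10 of the 27998 genes in the deposited tables. All 10 were detected in both libraries, and Nlrc5 was the scarcest, with 374 UMIs in the library labelled wt and 318 in the library labelled cko.

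MHC class I molecules display peptides from inside the cell to CD8 T cells. H2-K1 and H2-D1 encode the classical heavy chains of C57BL/6 mice, and B2m encodes the light chain, beta-2 microglobulin, that every class I heavy chain needs at the cell surface. Peptides are cut by the proteasome, whose immune form carries the catalytic subunits encoded by Psmb8, Psmb9 and Psmb10. They are then carried into the endoplasmic reticulum by the transporter encoded by Tap1 and Tap2 and loaded with the help of tapasin, encoded by Tapbp. NLRC5 is a transcriptional activator of the pathway, and interferons are known to raise most of these genes. In a tumor the class I level of the cancer cells bears on whether CD8 T cells can see them.

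Tumors were raised by subcutaneous implantation of Lewis lung carcinoma (LLC) cells, a lung carcinoma line of C57BL/6 origin, in 8-week-old C57/BL6 mice, and were taken on day 14 (labelled age 10 weeks). The series held 2 libraries of CD45+ cells, 1 per genotype, each from 3 pooled mice: miR-21fl/fl controls, and LysMCre;miR-21fl/fl mice, in which Cre driven by the Lyz2 (LysM) promoter deletes miR-21 in macrophages, monocytes and granulocytes. Both genotypes carried the loxP-flanked miR-21 allele, and the implanted LLC cells carried no Cre. The library titled wt has a source field that names the conditional knockout and the library titled cko one that names the floxed control, and the growth text names a narrower macrophage sort than the design text, so the libraries are called here by their titles. The library labelled wt held 2449 cells with 24492486 UMIs (unique transcript molecules), a median of 8359 per cell, and the library labelled cko held 2718 cells with 27163485 UMIs and a median of 8247. With 1 library per group no difference between the libraries could be tested, and all intervals given are exact 95% intervals that cover counting error only. The targeted gene, Mir21a, was not analysed here, so the labels were not checked against it. Lyz2, the gene into which the LysM Cre allele is inserted, was lower in the library labelled cko (7089 CPM, UMIs per 1000000 UMIs of the class, against 15921 in C1q macrophages).

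The class I heavy chain and light chain genes shared sequence features at their starts, which are shown because interferon, NF-kB and the NLRC5 enhanceosome are known to act on such elements. RefSeq windows (GRCm38.p6, 250 bases before to 50 after the annotated start) were found for 8 of the 10 genes, not for Tap2 and Nlrc5. Capitals mark GGGGATTCCCC (a kappaB-type site), TGACG (the core of the X2 box, either strand), CCAAT (either strand) and GAAANNGAAA (a strict form of the interferon-stimulated response element, ISRE).
H2-K1 chr17:34000284-34000583 (−): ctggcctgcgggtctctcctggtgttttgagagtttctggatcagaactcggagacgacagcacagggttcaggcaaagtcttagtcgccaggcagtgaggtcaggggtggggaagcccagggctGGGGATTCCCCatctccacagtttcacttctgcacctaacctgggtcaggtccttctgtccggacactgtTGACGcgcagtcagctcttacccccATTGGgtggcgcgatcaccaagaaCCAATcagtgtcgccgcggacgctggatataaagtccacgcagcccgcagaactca
H2-D1 chr17:35262844-35263143 (+): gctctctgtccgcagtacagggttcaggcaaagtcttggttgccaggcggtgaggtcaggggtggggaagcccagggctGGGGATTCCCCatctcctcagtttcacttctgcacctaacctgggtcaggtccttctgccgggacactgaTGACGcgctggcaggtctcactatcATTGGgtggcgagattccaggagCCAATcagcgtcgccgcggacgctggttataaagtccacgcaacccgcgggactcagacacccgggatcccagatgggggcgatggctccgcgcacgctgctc
B2m chr2:122147437-122147736 (+): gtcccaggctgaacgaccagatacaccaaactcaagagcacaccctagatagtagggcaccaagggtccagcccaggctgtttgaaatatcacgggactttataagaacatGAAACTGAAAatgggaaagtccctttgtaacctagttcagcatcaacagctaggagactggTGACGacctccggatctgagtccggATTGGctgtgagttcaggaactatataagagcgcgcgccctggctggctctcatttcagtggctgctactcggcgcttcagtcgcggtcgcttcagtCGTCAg
Tap1 chr17:34187306-34187605 (+): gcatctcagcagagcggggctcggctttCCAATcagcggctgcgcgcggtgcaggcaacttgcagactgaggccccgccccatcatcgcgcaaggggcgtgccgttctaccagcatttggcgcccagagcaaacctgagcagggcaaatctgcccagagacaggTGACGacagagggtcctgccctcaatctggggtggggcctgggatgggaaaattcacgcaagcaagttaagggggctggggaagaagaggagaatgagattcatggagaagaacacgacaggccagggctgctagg
In H2-K1, H2-D1 and B2m, TGACG was followed after 20 bases by ATTGG, the reverse of CCAAT, an arrangement held by 31 of 32851 promoter windows (0.0944%). It began at −55, −101 and −78 from the annotated start, respectively. GGGGATTCCCC was found in H2-K1 (−125) and H2-D1 (−171) and in 10 windows in all (0.0304%). These 2 patterns were searched for after the sequences had been read. The ISRE letters GAAANNGAAA, present in 3.44% of windows, were found only in B2m among the 8 genes (−139), and the GAS letters TTCNNNGAA, present in 8.3%, only in Psmb8 (−97). Only exact matches were searched for, so the other windows, those of H2-K1 and H2-D1 included, may hold looser forms of these elements. CCAAT was found in 6 of the 8 genes against 37.4% of windows and TGACG in 5 against 20.8%. Tap1 and Psmb9 are transcribed away from each other from starts that lie close together, and their windows share 275 bases. The CCAAT and the TGACG of these 2 genes are the same sites, counted for each gene, so the counts above are not of independent sites.

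By the GENCODE M21 annotation (GRCm38, the same assembly as mm10), Psmb9 (chr17:34181987-34187764, −), Tap1 (chr17:34187553-34197225, +), Psmb8 (chr17:34197721-34201454, +) and Tap2 (chr17:34203527-34216321, +) form 1 cluster, in which Psmb9 and Tap1 overlap at their starts on opposite strands. H2-K1 (chr17:33996017-34000347, −), Tapbp (chr17:33915899-33929292, +) and H2-D1 (chr17:35262730-35267499, +) lie on the same chromosome, B2m on chromosome 2 (chr2:122147686-122153083, +), and Psmb10 (chr8:105935735-105938444, −) and Nlrc5 (chr8:94434356-94527272, +) on chromosome 8. Tapbp overlaps Zbtb22 on the same strand and B2m overlaps Patl2 on the opposite strand. The counting rule for tags in such overlaps is not given in the sources used here. H2-K1 and H2-D1 are close relatives of each other and of the H2-Q genes. How reads shared among them were counted is not given in the sources used here, so their separate levels are uncertain. The counts are 3′ tags and were not divided by gene length.

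Cells were placed in classes by UMIs of marker genes, none of them a member. The C1q macrophages (at least 10 UMIs of C1qa, C1qb and C1qc) numbered 643 in the library labelled wt and 865 in that labelled cko. Classical monocytes numbered 426 and 414, nonclassical monocytes 197 and 198, and cells with both Ly6c2 and C1q 183 and 130. There were 82 and 116 CD8 T cells, 67 and 78 CD8-negative T cells, 57 and 53 NK cells, 18 and 18 plasmacytoid dendritic cells, 11 and 24 CCR7 mature dendritic cells, 19 and 15 XCR1 dendritic cells, and 34 and 65 neutrophil-like cells. The gate for tumor cells (Krt8 and Krt18 at 2 or more UMIs each, C1q under 10) held 5 and 8 cells. No class was defined for 664 and 671 cells, and 32 and 44 cells that passed several gates were set aside.

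H2-K1 was highest in CCR7 mature dendritic cells and CD8-negative T cells and lowest in the keratin-positive cells. It stood at 3721 CPM in CCR7 mature dendritic cells of the library labelled wt and 2817 in that labelled cko, and at 3112 and 2873 CPM in CD8-negative T cells, ranges that overlap. NK cells (2346 and 2138), plasmacytoid dendritic cells (2594 and 1804) and CD8 T cells (2097 and 2095) followed. The plasmacytoid range overlapped those of the other two, and NK cells lay above CD8 T cells in both libraries. C1q macrophages (1401 and 1227) and nonclassical monocytes (1338 and 1311) overlapped, and classical monocytes lay below them at 1205 and 1033. XCR1 dendritic cells, which are specialised in cross-presentation, had only 787 and 653 CPM, and neutrophil-like cells 702 and 469.

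H2-D1 was the more abundant heavy chain tag in each of the 12 classes plotted, and its range over classes was narrower. CCR7 mature dendritic cells again led at 8981 and 6454 CPM, followed by plasmacytoid dendritic cells at 5811 and 5958. Macrophages held 3997 and 3904 CPM, which overlapped classical monocytes at 3944 and 3880. CD8 T cells lay lower, at 3308 and 3565, and XCR1 dendritic cells at 2612 and 2330. The order therefore differed from that of H2-K1, since CD8 T cells stood above macrophages for H2-K1 and below them for H2-D1 in both libraries.

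B2m reached 14044 and 10693 CPM in CCR7 mature dendritic cells, above every other class. It lay between 5632 and 8599 CPM in plasmacytoid dendritic cells, the monocyte and macrophage classes, T cells and NK cells. Neutrophil-like cells (4900 and 2945) and XCR1 dendritic cells (3316 and 3270) overlapped at a lower level. XCR1 dendritic cells thus had lower B2m, H2-D1 and H2-K1 CPM than macrophages in both libraries. They were also deeper, with a median of 18487 and 15764 UMIs per cell against 11446 and 10977. Their median H2-D1 UMIs per cell were 45 and 42 against 47 and 44 in macrophages. For H2-K1 they were 15 and 12 against 16 and 13, and for B2m 69 and 54 against 80 and 72.

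**Figure D1:**
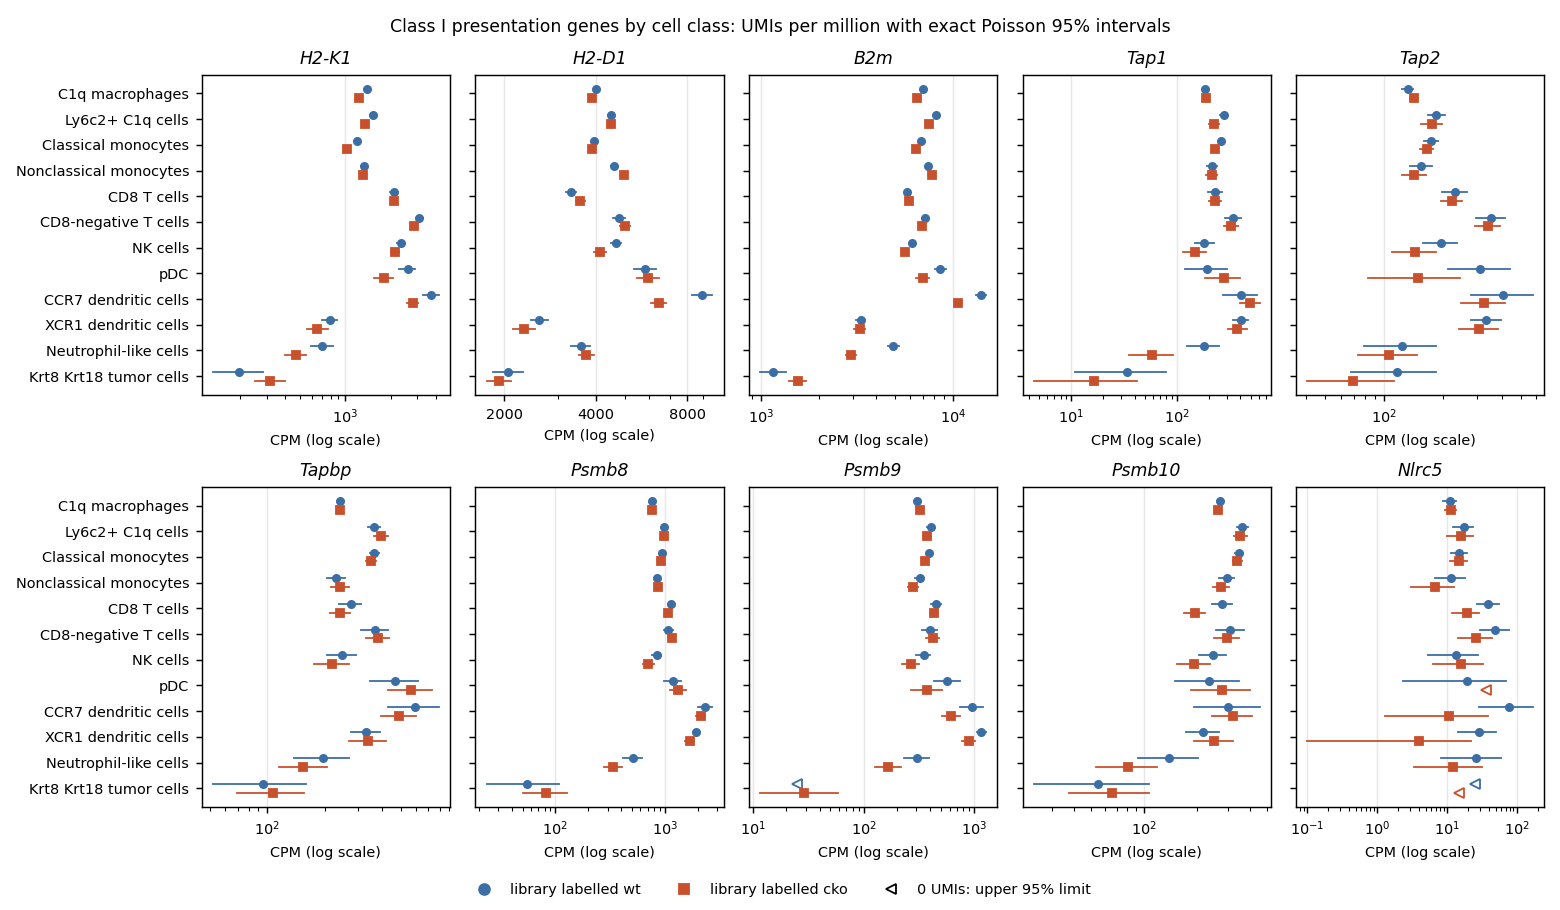
Level of each of the 10 genes (x axis, UMIs per 1000000 of the class, log scale) in 12 cell classes of the libraries labelled wt (circles) and cko (squares), with exact Poisson 95% intervals, and open triangles for the upper limit where no UMI was counted. CCR7 dendritic cells hold the highest H2-D1 and B2m levels in both libraries, and the Krt8 Krt18 tumor cells the lowest H2-K1, H2-D1 and B2m levels.

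The genes for peptide supply and loading were ordered differently. XCR1 dendritic cells had the highest Psmb9 level, 1168 and 899 CPM, which overlapped that of CCR7 mature dendritic cells (960 and 618). Psmb8 was 2354 and 2141 CPM in CCR7 mature dendritic cells and 1942 and 1697 in XCR1 dendritic cells, against 757 and 772 in C1q macrophages. Psmb10, the third catalytic subunit, was highest in the Ly6c2-positive C1q cells, at 363 and 352 CPM. It stood at 302 and 320 CPM in CCR7 mature dendritic cells and at 216 and 250 in XCR1 dendritic cells, against 270 and 265 in C1q macrophages.

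Tap1 was highest in CCR7 mature dendritic cells (408 and 495 CPM), XCR1 dendritic cells (404 and 375) and CD8-negative T cells (341 and 327). Tap2 showed the same leading classes at 408 and 325, 334 and 306, and 351 and 340 CPM, respectively. C1q macrophages held 186 and 191 CPM of Tap1 and 132 and 142 of Tap2. Tap1 made up 50.1% and 50.9% of the Tap1 and Tap2 tags in CD8 T cells and 58.5% and 57.4% in macrophages. Tapbp was 592 and 490 CPM in CCR7 mature dendritic cells and 466 and 565 in plasmacytoid dendritic cells, which overlapped, and 241 in macrophages of both libraries.

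Nlrc5 was near the limit of detection. It stood at 11 and 11.4 CPM in C1q macrophages, from 96 and 125 UMIs. CD8 T cells held 39.5 and 19.2 CPM (32 and 21 UMIs) and CD8-negative T cells 49.7 and 26.1 (20 and 14 UMIs). For 9 of the 11 neighbouring pairs in its order the ranges of the 2 libraries overlapped. After each cell was thinned to 1000 UMIs, 4.88% and 3.45% of CD8 T cells held an Nlrc5 UMI against 0.933% and 1.27% of macrophages, and without thinning 34.1% and 17.2% against 13.1% and 12.3%.

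Against C1q macrophages of the same library, members at least 2-fold higher in both libraries were counted among genes with at least 100 UMIs. CCR7 mature dendritic cells had 5 such members of 10 (H2-K1, Tap1, Tap2, Tapbp and Psmb8), where 7.77% of the 8476 genes measured passed. CD8-negative T cells had 3 (H2-K1, Tap2 and Nlrc5; background 8.31%) and XCR1 dendritic cells 3 (Tap2, Psmb8 and Psmb9; background 4.36%). No member passed in CD8 T cells (background 8.78%), NK cells (6.39%) or plasmacytoid dendritic cells (9.99%). In neutrophil-like cells no member was 2-fold lower than in macrophages in both libraries, where 18.2% of genes were, although H2-K1 lay at the limit, at 702 against 1401 CPM in the library labelled wt, and was 2.62-fold lower in that labelled cko. Against classical monocytes only Psmb10 was lower in them (background 15.5%), at 139 and 80.8 CPM.

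The keratin-positive cells had lower CPM than macrophages for most class I genes, and H2-D1 differed less than H2-K1 and B2m. They were deeper, with a median of 26300 and 26289 UMIs per cell against 11446 and 10977 in macrophages. The folds given for them therefore compare shares of the UMIs, not UMIs per cell. B2m was 1156 CPM in the 5 cells of the library labelled wt (170 UMIs) and 1556 CPM in the 8 cells of the library labelled cko (379 UMIs), 6.08-fold and 4.17-fold lower than in C1q macrophages. H2-K1 was 197 and 316 CPM (29 and 77 UMIs), 7.1-fold and 3.88-fold lower. Their log2 differences from macrophages were −2.60 (−2.83 to −2.39) and −2.06 (−2.21 to −1.91) for B2m, and −2.83 (−3.41 to −2.31) and −1.96 (−2.30 to −1.63) for H2-K1. H2-D1 was 2061 and 1921 CPM (303 and 468 UMIs), 1.94-fold and 2.03-fold lower, a smaller difference than for the other heavy chain. Per cell, median H2-D1 UMIs were 49 and 39.5 against 47 and 44 in macrophages. For B2m they were 39 and 29.5 against 80 and 72, and for H2-K1 2 and 7.5 against 16 and 13.

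The 3 immunoproteasome subunits were also lower than in macrophages, Psmb10 by less than Psmb8 and Psmb9. Psmb8 was 54.4 and 82.1 CPM (8 and 20 UMIs), 13.9-fold and 9.41-fold lower. Psmb9 was not found in the 5 cells of the library labelled wt, which against a floor of 3 counts over those cells is at least 14.8-fold lower, and was 28.7 CPM (7 UMIs) in the library labelled cko, 11.2-fold lower. Psmb10 was 54.4 and 65.7 CPM, with log2 differences of −2.31 and −2.01. Of the transporter genes, Tap1 was 34 and 16.4 CPM from 5 and 4 UMIs (log2 −2.45 and −3.54), whereas Tap2 was 116 and 69.8 CPM (log2 −0.19 and −1.02). Tapbp was 95.2 and 107 CPM, with log2 differences of −1.34 and −1.17. Nlrc5 had no UMI in either library, but the 3-count floor of 20.4 and 12.3 CPM lies above its level in macrophages, so a lower level was not detectable at this depth.

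In all, 7 of the 10 genes were at least 2-fold lower in the keratin-positive cells in both libraries, where 11.5% of 8553 genes were, and 0 were higher, where 13.3% were. The exceptions were H2-D1, Tap2 and Nlrc5. The H2-D1 exception rests on single cells, since 139 of its 303 UMIs in the library labelled wt came from 1 cell, without which it was 1480 CPM and 2.7-fold lower there. With each cell left out in turn, H2-D1 was 1.59-fold to 2.7-fold lower in the library labelled wt and 1.97-fold to 2.24-fold lower in that labelled cko. Tapbp dropped to 1.95-fold without 1 cell in each library, and the other 6 genes stayed at least 2-fold lower in both. The size of their folds still moved in the library labelled wt, where Tap1 was 4.5-fold to 20.7-fold lower. H2-K1 was 6.27-fold to 11.1-fold lower there and Psmb8 11.4-fold to 21-fold lower. The median log2 difference of the 10 genes was −2.53 and −2.04, or −2.38 and −1.98 with counts of 0 set to the floor, against −0.01 and 0.05 over all genes. The heavy and light chain sum (H2-K1, H2-D1 and B2m) differed by log2 −1.86 (−1.99 to −1.74) and −1.62 (−1.71 to −1.52), and the loading and peptide sum (Tap1, Tap2, Tapbp, Psmb8, Psmb9 and Psmb10) by −2.42 and −2.39.

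The single keratin-positive cells varied. H2-D1 in the 5 cells of the library labelled wt was 909, 3841, 1863, 1020 and 2596 CPM, and it ranged from 1232 to 2881 CPM in the 8 cells of the other library. B2m ranged from 603 to 1483 CPM and from 1003 to 2641 CPM, and H2-K1 from 47.2 to 414 and from 35.8 to 534. All 13 cells lay below the 5th percentile of macrophages for B2m (3522 CPM) and for Psmb8 (180 CPM), 12 lay below it for H2-K1 (490 CPM), and 8 for H2-D1 (1866 CPM). Psmb9 was found in 0 of 5 and 4 of 8 cells. The highest H2-D1 value, 3841 CPM, thus lay within the macrophage quartiles of its library (2977 to 4987 CPM), and no B2m value did (5432 to 8182 CPM in the library labelled wt, 5205 to 7672 in that labelled cko).

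**Figure D2:**
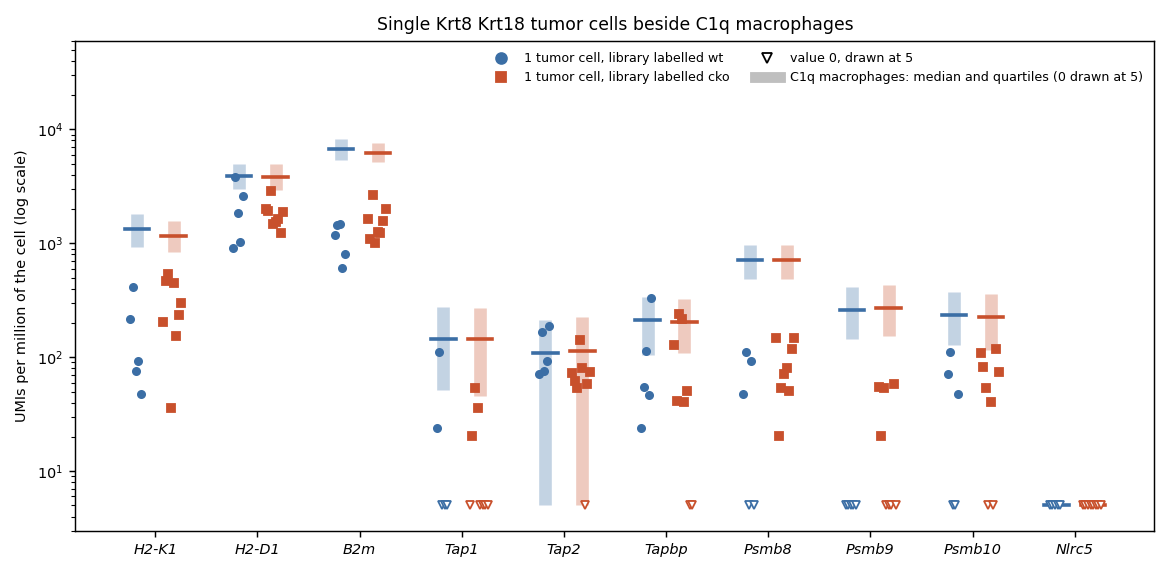
Level of each gene (y axis, UMIs per 1000000 of the cell, log scale) in each of the 5 and 8 Krt8 Krt18 tumor cells, beside the median (line) and quartiles (bar) of the C1q macrophages of the same library, with open triangles for cells without a UMI. All H2-K1, B2m, Psmb8 and Psmb9 points lie below the macrophage quartiles, whereas all Tap2 points, 5 Tapbp points, 2 Tap1 points, 1 Psmb10 point and 1 H2-D1 point lie inside them.

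The identity of these cells rests on their keratins, and the sort for CD45+ cells would be expected to remove LLC cells. How they came to be in the libraries was not tested. Other epithelial markers were almost absent, with 1 and 0 UMIs of Epcam and none of Krt19, and the leukocyte gene Ptprc (CD45) had 3 and 4 UMIs. Endothelial and mast cell markers and Col1a1 and Col1a2 were at 0, and Col3a1 had 5 and 11 UMIs. Dcn, a fibroblast gene, had 42 UMIs in 1 cell of the library labelled wt, with 4 Krt8 and 3 Krt18 UMIs, and without this cell H2-K1 was 215 CPM, H2-D1 2240 and B2m 1251, with log2 differences of −2.70, −0.84 and −2.49. The gate caps the C1q tags of these cells, so how much free RNA they carry was not tested. A further 7 cells with both keratins and at least 10 C1q UMIs were found in the library labelled cko and 0 in the library labelled wt. They had a median of 67223 UMIs, and H2-K1 at 119 CPM, H2-D1 at 1806, B2m at 1231, Psmb8 at 61.2 and Psmb9 at 18.2. They were therefore low for the same genes. Their C1qa, C1qb and C1qc levels were 53, 77.8 and 46.3 CPM. In the same library these were 58.6, 92.4 and 43 CPM in CD8 T cells and 4267, 5826 and 3270 in C1q macrophages.

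The balance between related genes also differed between the keratin-positive cells and macrophages. H2-K1 made up 8.73% and 14.1% of the H2-K1 and H2-D1 tags in them, against 26.0% and 23.9% in C1q macrophages. The share was 38.8% and 37.0% in CD8 T cells, 39.5% and 36.4% in CD8-negative T cells and 33.4% and 34.1% in NK cells. It was 29.3% and 30.4% in CCR7 mature dendritic cells, and lay between 21.0% and 25.3% in the monocyte classes and the Ly6c2-positive C1q cells. It was lower in neutrophil-like cells at 16.4% and 11.2%, a range that overlaps that of the keratin-positive cells. Lymphocytes therefore had the most H2-K1 relative to H2-D1 in both libraries.

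Psmb5, Psmb6 and Psmb7 encode the subunits that Psmb8, Psmb9 and Psmb10 replace, respectively. Psmb8 made up 12.3% and 16.0% of the Psmb8 and Psmb5 tags in the keratin-positive cells, against 76.8% and 79.1% in macrophages and 96.2% and 93.1% in CCR7 mature dendritic cells. Psmb9 made up 0% (0 of 36 Psmb9 and Psmb6 tags, with an upper limit of 9.74%) and 9.72% against 48.6% and 50.5% in macrophages, and Psmb10 12.5% and 14.5% against 55.8% and 56.6%. Psmb5 itself was higher in the keratin-positive cells, at 388 and 431 CPM against 229 and 204 in macrophages (log2 0.76 and 1.08), as was Psmb7 (log2 0.83 and 0.93). Psmb6 was 245 and 267 CPM against 321 and 314 (log2 −0.39, −0.91 to 0.08, and −0.24, −0.61 to 0.12). No constitutive subunit reached a 2-fold difference in both libraries. Among the leukocytes XCR1 dendritic cells combined a high share of Psmb9 (77.8% and 73.4%) with a low share of Psmb10 (38.4% and 48.1%).

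**Figure D3:**
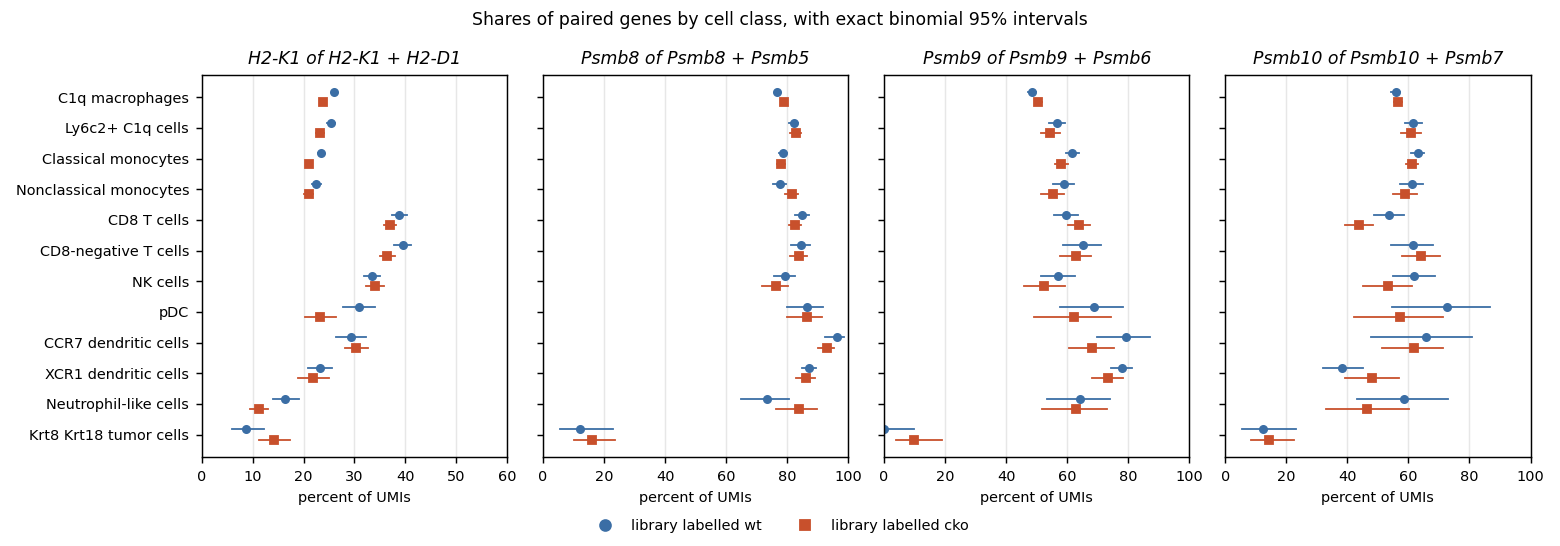
Share of the first gene in the tags of each pair (x axis, percent of UMIs) by cell class, for the libraries labelled wt (circles) and cko (squares), with exact binomial 95% intervals. The 3 immunoproteasome shares lie below 20 percent in the Krt8 Krt18 tumor cells and above 35 percent in every leukocyte class.

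Of 27 other genes of the pathway, 26 had at least 100 UMIs in the 2 classes compared, 9 were at least 2-fold lower in the keratin-positive cells in both libraries and 0 were higher, where 11.5% and 13.3% of all genes were. The minimum was taken over both classes and could be reached through the macrophages alone, here and for the 10 genes, so the count is a description. They included the proteasome activator genes Psme1 and Psme2, the class I-like genes H2-Q4, H2-Q7, H2-T23 and H2-M3, and the transcription factor genes Irf1 and Irf2. Psme1 differed by log2 −1.33 and −2.01, from 27 and 28 UMIs in the keratin-positive cells. Some of the others rest on almost no tags there. H2-Q4 had 0 UMIs in both libraries against 475 and 584 in macrophages, and its call is against the floor of 3 counts (at least 2.68-fold and 4.31-fold lower). H2-Q7 had 0 and 2 UMIs and H2-M3 had 1 and 2.

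Between the libraries the class I genes of C1q macrophages differed little. H2-K1 was 1401 CPM in the library labelled wt and 1227 in that labelled cko, a log2 ratio (cko over wt) of −0.19 (−0.23 to −0.16). B2m was 7027 and 6486 CPM (−0.12, −0.13 to −0.10) and H2-D1 3997 and 3904 (−0.03). The loading and peptide sum was 1889 and 1930 CPM (0.03, 0.00 to 0.06). All 10 genes had at least 100 UMIs, and 0 passed a log2 ratio of 0.25 in either direction, where 14.6% of 8423 genes passed as higher in the library labelled cko and 7.21% as lower. Their median ratio was 0.01, against 0.03 over all genes.

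Classical monocytes, in which the LysM promoter is also active, differed as little. H2-K1 was 1205 and 1033 CPM (log2 −0.22, −0.29 to −0.16), B2m 6838 and 6402 (−0.10) and Tap1 265 and 231 (−0.20, −0.33 to −0.07). All 10 genes were lower in the library labelled cko and 0 passed 0.25 (background 14.4% higher, 9.19% lower), with a median of −0.06 against 0.03. In nonclassical monocytes 9 genes were measured and 0 passed (background 14.5% and 12.5%), with H2-D1 at 4609 and 4942 CPM (0.10, 0.05 to 0.15). In the Ly6c2-positive C1q cells only Tap1 passed, at 279 and 225 CPM (−0.31, −0.51 to −0.11; background 14.5% and 10.4%).

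In CD8 T cells, in which the LysM promoter is not known to be active, H2-K1 was 2097 and 2095 CPM, H2-D1 3308 and 3565 (log2 0.11, 0.04 to 0.18) and B2m 5786 and 5946. Of 9 genes only Psmb10 passed 0.25, at 278 and 194 CPM (−0.52, −0.80 to −0.24), where 20.4% of 2596 genes were higher and 16.1% lower. Nlrc5, with fewer than 100 UMIs, had a ratio of −1.04 (−1.91 to −0.20). In CD8-negative T cells 0 of 9 genes passed (background 21.8% and 13.1%).

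NK cells had all 9 measured genes lower in the library labelled cko, and 5 passed 0.25 (background 17.4% higher, 17.1% lower). The 5 were Tap1, Tap2, Psmb8, Psmb9 and Psmb10. Psmb8 was 844 and 707 CPM (log2 −0.26, −0.47 to −0.04) and Psmb9 349 and 267 (−0.39, −0.73 to −0.04), and the counting intervals of the other 3 reached above 0. The loading and peptide sum was 2061 and 1678 CPM (−0.30, −0.43 to −0.16), and the median over the 9 genes was −0.26, against 0.03 over all genes. The summed level of 8 interferon-responsive genes (Isg15, Ifit1, Ifit2, Ifit3, Rsad2, Irf7, Oasl2 and Cxcl10) was also lower in these NK cells, at 385 and 153 CPM (−1.33, −1.76 to −0.93). The same sum was 1257 and 302 CPM in XCR1 dendritic cells (−2.06) and 398 and 149 in plasmacytoid dendritic cells (−1.42), against 1035 and 1035 in C1q macrophages, 2398 and 2192 in classical monocytes (−0.13), 386 and 357 in CD8 T cells (−0.11) and 1354 and 1656 in CCR7 mature dendritic cells (0.29). In the keratin-positive cells it was 74.8 and 24.6 CPM (−1.60), from 11 and 6 UMIs. The ratio was −0.30 in neutrophil-like cells, −0.18 in Ly6c2-positive C1q cells, 0.26 in nonclassical monocytes and 0.27 in CD8-negative T cells. The part of this sum in the class I ratios was not tested.

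CCR7 mature dendritic cells, 11 and 24 in number, had lower H2-K1, H2-D1 and B2m in the library labelled cko. H2-D1 was 8981 and 6454 CPM (log2 −0.48, −0.61 to −0.34), B2m 14044 and 10693 (−0.39, −0.50 to −0.28) and H2-K1 3721 and 2817 (−0.40, −0.61 to −0.19). Psmb9 was 960 and 618 (−0.64, −1.07 to −0.19), whereas Psmb8 was 2354 and 2141 (−0.14, −0.39 to 0.13). Of 7 genes measured 5 were lower past 0.25 and 1, Tap1, higher (background 36.7% higher, 20.3% lower). The single cells overlapped between the libraries, with H2-D1 from 3907 to 16332 CPM (median 9392) in the library labelled wt and from 2444 to 13677 (median 6281) in the other.

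In neutrophil-like cells B2m was 4900 and 2945 CPM (log2 −0.73, −0.87 to −0.60), H2-K1 702 and 469 (−0.58, −0.93 to −0.24), Psmb8 511 and 339 (−0.59) and Psmb9 305 and 168 (−0.86), whereas H2-D1 was 3568 and 3722 (0.06, −0.08 to 0.20). Of 5 genes measured 4 were lower past 0.25, where 44.6% of 675 genes were lower and 19.7% higher, and the median of all genes was itself −0.17. The cells differed in depth between the libraries, with 18 of 34 and 48 of 65 under 5000 UMIs. The deeper cells also had more of the class II gene H2-Ab1, 4846 and 3729 CPM against 429 and 320 in the shallower ones. They had more Ccr2 (749 and 605 CPM against 31.8 and 11) and Csf1r (367 and 327 against 79.5 and 49.6). S100a8 was 28320 and 59501 CPM in them against 156105 and 159381. Classical monocytes had 887 and 965 CPM of Ccr2 and 483 and 435 of Csf1r. The 2 depth groups thus differed in markers as well as depth, and the ratios over all neutrophil-like cells combine them. Among the cells with at least 5000 UMIs B2m was 6046 and 4490 CPM (−0.43), H2-K1 871 and 818 (−0.09) and Psmb8 703 and 640 (−0.13). Among the shallower cells B2m was 2513 and 1748 (−0.52), H2-K1 350 and 199 (−0.82) and Psmb8 111 and 105 (−0.09, from 7 and 19 UMIs). The ratio of B2m therefore kept its sign at both depths, that of H2-K1 was within 0.25 in the deeper cells, and that of Psmb8 was within 0.25 at both depths.

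In XCR1 dendritic cells 2 of 9 genes passed 0.25, both lower (background 13.4% higher, 18.8% lower), H2-K1 at 787 and 653 CPM (log2 −0.27, −0.55 to 0.01) and Psmb9 at 1168 and 899 (−0.38, −0.62 to −0.14). Plasmacytoid dendritic cells had H2-K1 at 2594 and 1804 CPM (−0.52, −0.80 to −0.25) and B2m at 8599 and 6969 (−0.30, −0.45 to −0.16), with H2-D1 at 5811 and 5958. Of 5 genes there 2 were lower and 1, Tapbp, higher past 0.25 (background 14.2% higher, 14.6% lower). In the keratin-positive cells H2-K1 and B2m were higher in the library labelled cko (0.68, 0.05 to 1.35, and 0.43, 0.16 to 0.70) and H2-D1 was not (−0.10, −0.31 to 0.11), 2 of 3 genes measured where 36.1% of genes were higher and 22.9% lower.

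The cells of no class (664 and 671) had Csf1r at 502 and 465 CPM and the class II gene H2-Ab1 at 8513 and 8079 CPM. H2-K1 stood at 1178 and 1128 CPM in them, H2-D1 at 3641 and 3833 and B2m at 5995 and 5835. Of the 10 genes only Nlrc5 passed 0.25, at 14.4 and 9.1 CPM (log2 −0.66, −1.23 to −0.11), where 11.5% of genes were higher and 8.44% lower.

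The 27 other pathway genes were also compared between the libraries. In C1q macrophages 25 of them had at least 100 UMIs, and 0 were higher and 1 lower past 0.25, the class I-like gene Mr1 (−0.39, from 57 and 55 UMIs). In classical monocytes 22 were measured, with H2-Q4 lower (−0.48, 210 and 147 UMIs) and Cd1d1, which presents lipids, higher (0.75, 57 and 94 UMIs). The background in these classes was 14.6% higher and 7.21% lower, and 14.4% and 9.19%. In CD8 T cells 3 were higher and 7 lower of 20 (background 20.4% and 16.1%), among them Tapbpl (−0.58, −1.01 to −0.14), which encodes a tapasin-like protein, and H2-T22 (0.34, 0.09 to 0.59), a nonclassical class I gene. In NK cells 0 were higher and 5 lower of 15 (background 17.4% and 17.1%). These included Psme1 and Psme2, the subunits of the proteasome activator PA28, at −0.40 (−0.66 to −0.14) and −0.49 (−0.76 to −0.22). The counts were 0 and 4 of 20 in nonclassical monocytes (background 14.5% and 12.5%), 1 and 4 of 20 in Ly6c2-positive C1q cells (14.5% and 10.4%), and 2 and 2 of 6 in CCR7 mature dendritic cells (36.7% and 20.3%).

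Within a class the genes followed interferon-responsive transcripts. Cells of 3 classes (classical monocytes, Ly6c2-positive C1q cells and C1q macrophages) were split in each library into 3 equal ranges by the summed share of Isg15, Ifit1, Ifit2, Ifit3, Rsad2, Irf7, Oasl2 and Cxcl10, none of which is a member. In classical monocytes Tap1 was 163, 240 and 396 CPM from the lowest to the highest range of the library labelled wt, and 124, 218 and 360 in that labelled cko. Psmb9 was 261, 379 and 543, and 246, 337 and 519. H2-K1 was 942, 1213 and 1471, and 782, 977 and 1361. Each of these genes thus rose from range to range in both libraries.

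All 9 genes with at least 100 UMIs were higher by 0.25 or more in the highest than in the lowest range, in each of 3 classes and both libraries. Among all genes 24.3% and 23.1% were in classical monocytes, 23.7% and 25.3% in Ly6c2-positive C1q cells and 15.9% and 13.9% in C1q macrophages. The median log2 ratio of the 9 genes was 0.71 and 0.80, 0.48 and 0.46, and 0.50 and 0.58 in these classes, respectively. H2-K1 in the Ly6c2-positive C1q cells labelled cko and H2-D1 in the macrophages labelled wt were at the limit, at 0.25.

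In classical monocytes and C1q macrophages Tap1 and Psmb9 had larger ratios than the heavy and light chains. In classical monocytes the ratio was 1.28 and 1.53 for Tap1, 1.06 and 1.08 for Psmb9, 0.79 and 0.69 for Tapbp, 0.64 and 0.80 for H2-K1, 0.46 and 0.50 for H2-D1 and 0.57 and 0.62 for B2m. In C1q macrophages it was 0.97 and 1.21 for Tap1, 0.78 and 0.80 for Tapbp, 0.69 and 0.73 for Psmb9, 0.33 and 0.34 for H2-K1 and 0.25 and 0.29 for H2-D1. Nlrc5 had 12 and 56 UMIs in the lowest and the highest range of macrophages labelled wt, and 28 and 66 of those labelled cko (2.11 and 1.16). The loading and peptide sum exceeded the heavy and light chain sum in both classes (0.83 and 0.91 against 0.54 and 0.60 in monocytes, 0.61 and 0.65 against 0.32 and 0.31 in macrophages). In the Ly6c2-positive C1q cells it was 0.59 against 0.37 in the library labelled wt, and 0.49 (0.38 to 0.61) against 0.44 (0.39 to 0.49) in that labelled cko, where the intervals overlap and Tap2 (0.46) lay below B2m (0.51).

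Other genes did not all follow. Actb, which encodes beta-actin, was higher in the highest range of classical monocytes (0.26 and 0.50) and not in macrophages (−0.08 and −0.06). Psmb5 was lower in the highest range of classical monocytes (−0.43 and −0.57). The class II gene H2-Ab1 was higher there (0.96 and 1.17), whereas in macrophages it was 0.01 and 0.15. Irf1, a transcription factor gene, rose with the list in monocytes (1.16 and 1.20). Median depth was 9263 UMIs in the lowest and 8221 in the highest range of classical monocytes labelled wt, and 8867 and 8154 in those labelled cko. The ranges cut a continuous score, and 13 and 21 of the monocytes labelled wt lay within 10 percent of the cuts. In these ranges all genes come from the same cells and the same library, so the ratios describe cells and are no comparison of conditions.

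**Figure D4:**
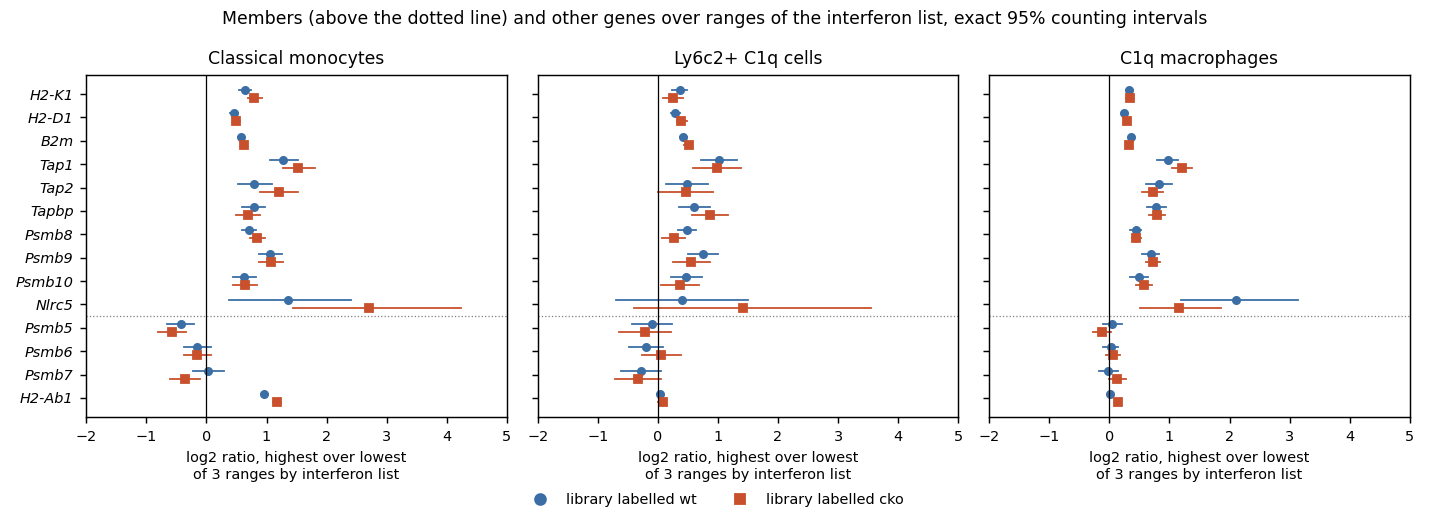
Log2 ratio of the highest over the lowest of 3 ranges of cells by the interferon list (x axis), for the 10 genes (above the dotted line) and 4 other genes, in 3 cell classes of each library, with exact 95% counting intervals. All 10 genes lie above 0 in each class and library, and the constitutive subunit genes Psmb5, Psmb6 and Psmb7 lie at or near 0 or below it.

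Across the 8 classes with at least 20 cells in each library (16 points, which share libraries and free RNA), the genes most like the mean profile of the members included Psme2 (Pearson r = 0.96), Tmem173 (0.94), Psme2b, Ptpn18 and Zfp207 (0.92 each), and Zfp53 and Cog1 (0.91 each), out of 6186 genes. Psme2 encodes a subunit of the proteasome activator PA28. Among the members the closest pairs were B2m and Psmb10 (0.92), Psmb8 and Psmb9 (0.91), Tap1 and Psmb8 (0.90) and Tap1 and Psmb9 (0.90). Nlrc5 was unlike H2-D1 (−0.16) and B2m (−0.03), and H2-D1 was unlike Psmb9 (0.07).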

How the data were processed

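CD45+ cells of LLC tumors were profiled with 10x Chromium 3′ v2 chips in 2 libraries of 3 pooled mice each. The authors deposited raw UMI counts per gene and cell for cells already called, with 27998 genes, of which 56 symbols stand on more than 1 row. The submitters' processing notes name Cell Ranger, Seurat and mm10, with versions not given in the sources used here. With 1 library per group no count model was fitted.

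Cells with at most 10% mitochondrial UMIs and at least 200 genes were kept, 2445 of 2449 (wt) and 2704 of 2718 (cko). The libraries shared 5 cell barcodes, whose log counts correlated at 0.67 to 0.75. Cells were gated on marker UMIs as described in the report, and cells passing several gates were set aside as possible doublets. Counts were summed per class and library and divided by the UMIs of the class (CPM). Intervals were exact Poisson (levels), Clopper-Pearson (shares) and conditional binomial (ratios), at 95%. Genes with at least 100 UMIs in a class were compared with a log2 limit of 0.25 between libraries, and with a 2-fold limit in both libraries between classes, where a count of 0 in the divisor was taken at a floor of 3 counts. The text names all 10 genes, those of the 27 other pathway genes past the limits in C1q macrophages and classical monocytes, and the 8 genes most like the members, except 2 genes that are not reported here. The pathway genes named in CD8 T and NK cells were chosen after their values were seen. The genes and lists were chosen with earlier results of these data known, and the keratin-positive cells with C1q, the depth split of neutrophil-like cells, the keratin-positive cells left out in turn, the one with Dcn included, and 2 promoter patterns were examined after seeing the data. Promoters were RefSeq windows of GRCm38.p6. The scripts were tested on simulated data. The tools were python 3.11.15, numpy 2.4.6, scipy 1.17.1, pandas 2.3.3, scanpy 1.11.5 and matplotlib 3.10.9. Other settings tried were other scaling, gates, depth and cell filters, doublet removal by Scrublet scores (48 and 59 cells), free RNA subtraction and leaving out the cell with the most tags.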

Additional observations from a re-analysis of the deposited data

Results flagged for a closer look

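For 4 genes the ratio of the library labelled cko over that labelled wt had opposite signs in 2 cell classes, with counting intervals on opposite sides of 0. H2-K1 had a log2 ratio of 0.68 in the keratin-positive cells and −0.58 in neutrophil-like cells. H2-D1 had 0.11 in CD8 T cells and −0.48 in CCR7 mature dendritic cells. B2m had 0.43 in the keratin-positive cells and −0.73 in neutrophil-like cells. Psmb9 had 0.08 in C1q macrophages and −0.86 in neutrophil-like cells. With 1 library per group these differences were not tested. Among neutrophil-like cells with at least 5000 UMIs H2-K1 was −0.09 (−0.48 to 0.30) and Psmb9 −0.58 (−1.27 to 0.09), intervals that reach above 0, and B2m was −0.43 (−0.58 to −0.28). The keratin-positive values rest on 5 and 8 cells, and 139 of the 303 H2-D1 UMIs of the library labelled wt came from 1 cell.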

How the results depend on the processing

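No paired analysis was possible because each group had 1 library, and for the same reason no library could be left out. Of 76 alternative values for the sums of heavy and light chain genes and of loading and peptide genes, 63 stayed within the counting interval, 13 moved, and none passed to the other side of its limit. The heavy and light chain ratio of C1q macrophages (−0.10) was −0.08 as a mean over cells, −0.13 with median-of-ratios scaling and −0.11 at a C1q limit of 20. With median-of-ratios scaling it was −0.12 in classical monocytes (−0.08 before), and the loading ratio of macrophages was 0.00 (0.03 before). In CD8 T cells the heavy and light chain ratio of 0.05 became −0.05 as a mean over cells. For the keratin-positive cells labelled wt (−1.86) it was −1.68 with doubled gate limits (2 cells) and −2.22 without the cell with the most tags. For those labelled cko (−1.62) it was −1.77 with median-of-ratios scaling, −1.50 with doubled limits, −1.73 at a C1q limit of 20, −1.78 without the top cell and −1.88 in the cells with C1q, which were examined after seeing the data. Of 710 values for single genes 675 stayed within the interval, 33 moved and 2 called values turned sign. In all, 42 crossed their limit, which was 0.25 between libraries and 2-fold between classes. Tapbp in neutrophil-like cells (−0.34) was 0.47 in cells under 5000 UMIs, and Tap1 in CCR7 mature dendritic cells (0.28) was −0.03 as a mean over cells. The cause was not tested. Depth limits Nlrc5 everywhere and all genes in the classes of fewer than 25 cells.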

Other observations

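The B cells numbered 4 and 2 and the CD209a dendritic cells 3 and 3 in the libraries labelled wt and cko, too few for the comparisons above. H2-K1 was 2598 and 2145 CPM in the B cells and 1068 and 1418 in the CD209a dendritic cells, H2-D1 4034 and 3048 and 4144 and 4841, and B2m 4543 and 5701 and 3982 and 6398.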
